A study of Mus musculus with 2 samples.

Results

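The 8 genes described here, Arpp21, Themis, Aqp11, Plxnd1, Tdrd5, Nlgn2, Rmnd5a and Cux1, are listed for the double-positive (DP) stage of thymocyte development. All samples are DP thymocytes by their labels, so whether the genes mark this stage was not tested. They were taken by name from a list that was drawn up with earlier results of these data known, so the counts below describe the genes and do not test the list. Every array probe that names one of them was used, including probes filed under the older names E430004N04Rik for Themis and Cutl1 for Cux1. That gave 19 probes for 8 genes, of 41174 probes on the array. After the filter on dim probes, 18 of the 19 remained, and all 8 genes were among the 14923 genes measured. RNA came from DP thymocytes of Bcl11bF/FCD4Cre/Tcra-/- mice, called Bcl11b-deficient here, and of TCRa-/- mice, called control. The deficient mice carry floxed Bcl11b and a Cre that is active where Cd4 is. Both genotypes lack Tcra, and the question was what Bcl11b does in DP cells before selection. The control label carries neither Cre nor a floxed allele, so an effect of Cre and an effect of losing Bcl11b cannot be told apart. Age, sex and the number of mice in each sample are not in the labels. On each of 2 Agilent 2-colour arrays, named biological replicates, 1 deficient sample in Cy5 met 1 control sample in Cy3. No array had the dyes reversed, so a bias that follows the dye cannot be told apart from genotype.

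DP thymocytes carry both the CD4 and the CD8 coreceptor. They have rearranged the receptor beta chain, rearrange the alpha chain, and wait in the thymic cortex for signals that decide between death and maturation. Bcl11b is a zinc finger transcription factor that holds cells in the T lineage. Without Tcra no alpha beta receptor forms, so alpha beta thymocytes stop at the DP stage, before selection. Whether the Bcl11b-deficient cells also stop there was not tested. The 8 genes have unrelated functions. Themis is an adaptor of T cell receptor signalling, Plxnd1 a semaphorin receptor, and Cux1 a transcription factor. Arpp21 and Tdrd5 encode proteins of RNA regulation, Rmnd5a a ubiquitin ligase subunit, Aqp11 a membrane channel and Nlgn2 an adhesion protein.

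Of the 8 genes, 7 read lower in the deficient sample on both arrays, and Nlgn2 gave opposite signs on the 2 arrays. Over all genes measured, 38.5% were lower on both arrays. The median log2 ratio of deficient over control was -0.58 over the 8 genes (-0.58 on replicate 1 and -0.51 on replicate 2), against -0.0035 over all genes. With median centring of each array in place of loess, 4 of the 8 were lower on both arrays. The median of the 8 was then -0.12, against 0.13 over all genes. Aqp11 and Themis had means above 0, and a further gene of the 7 had a mean below 0 without being lower on both arrays. Tdrd5 stood lowest, at 34.5% of the control level, followed by Rmnd5a at 54.0%, Plxnd1 at 62.2%, Arpp21 at 62.5% and Cux1 at 71.9%. Aqp11 at 81.1% and Themis at 84.4% differed less. None of the 8 passed limma's test over all genes at an adjusted p of 0.05, with adjusted p from 0.0662 to 0.783. The background of genes called lower in that test was 0%, since it called no gene at all. At an unadjusted p of 0.05, 7 of the 8 were lower, and so were 14.1% of all genes.

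Each gene is given by its brightest kept probe unless another probe is named. Processed signals are scanner intensities after Agilent's own background and dye correction. They show the level in each sample, are not adjusted between arrays, and cannot be set against those of another probe. For 7 genes, both deficient samples lay below both control samples in processed signal, and 32.1% of all genes did the same. Nlgn2 was the gene whose samples overlapped. Of the genes, 6 of the 7 genes that were lower on both arrays were further down on replicate 2. Of all genes lower on both arrays, 54.9% were further down on replicate 2.

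**Figure D1:**
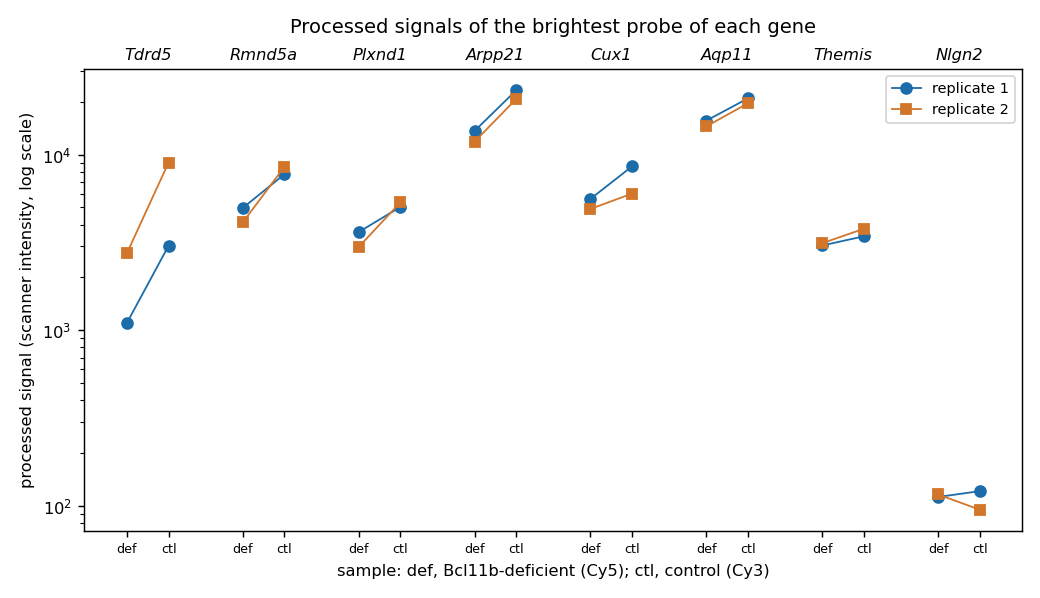
Processed signals (scanner intensity, log scale) of the brightest probe of each gene, with the Bcl11b-deficient sample left of the control sample of the same array and a line joining them. Circles are replicate 1 and squares replicate 2. The lines climb from deficient to control on both arrays for 7 genes, and for Nlgn2 they slope in opposite directions.

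Promoter sequences are shown for the 3 genes that stood lowest, each with a single start in the RefSeq table, and for Nlgn2, the gene of mixed sign. These genes were picked after their values were seen. Each is 250 bases before to 50 after the annotated start, from RefSeq on GRCm38.p6, 5′ to 3′ on the gene's strand. Capitals mark the E-box CANNTG, which E proteins bind, and AGGTCA, read on either strand, a site of nuclear receptors.
Tdrd5 (chr1:156303299-156303598, minus strand): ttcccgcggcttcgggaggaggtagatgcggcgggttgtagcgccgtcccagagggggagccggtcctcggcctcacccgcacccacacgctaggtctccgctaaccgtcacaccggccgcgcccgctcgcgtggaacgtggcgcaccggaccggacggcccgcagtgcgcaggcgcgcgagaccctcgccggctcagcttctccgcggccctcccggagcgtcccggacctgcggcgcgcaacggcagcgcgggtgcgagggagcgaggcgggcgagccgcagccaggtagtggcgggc
Rmnd5a (chr6:71440588-71440887, minus strand): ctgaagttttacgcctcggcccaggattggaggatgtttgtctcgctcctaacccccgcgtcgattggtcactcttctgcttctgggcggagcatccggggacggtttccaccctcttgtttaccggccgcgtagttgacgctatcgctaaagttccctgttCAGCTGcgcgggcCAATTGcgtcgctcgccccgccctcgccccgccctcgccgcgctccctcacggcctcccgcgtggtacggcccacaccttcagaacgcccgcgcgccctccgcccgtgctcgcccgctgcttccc
Plxnd1 (chr6:115994956-115995255, minus strand): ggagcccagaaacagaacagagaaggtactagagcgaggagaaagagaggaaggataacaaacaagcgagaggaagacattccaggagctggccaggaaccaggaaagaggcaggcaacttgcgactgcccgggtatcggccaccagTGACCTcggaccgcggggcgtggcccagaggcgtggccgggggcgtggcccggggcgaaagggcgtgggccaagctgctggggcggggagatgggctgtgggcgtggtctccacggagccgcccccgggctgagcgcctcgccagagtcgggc
Nlgn2 (chr11:69837735-69838034, minus strand): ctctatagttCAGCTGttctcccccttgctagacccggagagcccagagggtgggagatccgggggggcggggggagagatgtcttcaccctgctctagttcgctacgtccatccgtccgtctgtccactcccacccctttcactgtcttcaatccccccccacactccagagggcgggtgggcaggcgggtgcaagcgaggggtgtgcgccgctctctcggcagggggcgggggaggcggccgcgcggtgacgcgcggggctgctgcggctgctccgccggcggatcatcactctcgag

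The Rmnd5a promoter held 2 E-boxes and that of Nlgn2 held 1, while Tdrd5 and Plxnd1 held none in this window. Plxnd1 held 1 AGGTCA site, read on the opposite strand, and no E-box overlapped an AGGTCA site. Of 32851 promoters of the same length, 72.3% held an E-box and 16.3% an AGGTCA site. Of the 17 member promoters, 14 held an E-box and 3 an AGGTCA site. By gene, 5 of the 8 had an E-box at some start and 3 of the 8 an AGGTCA site, namely Aqp11, Arpp21 and Plxnd1. The shares over all promoters are by promoter, so the counts by gene cannot be set against them. TGTGGT, the core that RUNX factors bind, was in 3 of the 17 member promoters, all of Arpp21, and in 16.8% of all promoters. CCGGAAG, an ETS site, was in none of the 17 member promoters and in 8.86% of all. Arpp21 gave 9 of the 17, several of them overlapping. Their GC content ranged from 40.3% for a start of Arpp21 to 76.0% for Tdrd5, against a median of 52.7% over all promoters.

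Tdrd5 encodes a Tudor domain protein known from the piRNA pathway, which silences transposons in male germ cells. Its brighter probe (mm8 chr1:158092346-158092405, minus strand) gave processed signals of 1101 and 2744 in the deficient samples of replicates 1 and 2, against 3030 and 9014 in the controls. The deficient value was the lower one within each array, though the whole pair lay higher on replicate 2, by 2.49 times in the deficient channel and 2.97 times in the control channel. The log2 ratios were -1.38 and -1.69, with a mean of -1.54 ± 0.11 (SE, n = 2 arrays; limma adjusted p = 0.0662). That mean ranked 12 from the bottom among 14923 genes. The second probe (chr1:158114087-158114146) was dim, with processed signals of 105.0 and 83.4 in the deficient samples against 182.5 and 260.9 in the controls. It was lower on both arrays too, by a smaller log2 ratio of -0.57 ± 0.13 with loess, and it did not show the higher level of the deficient sample on replicate 2. Agilent's processed signals put this dim probe at -0.80 and -1.65. Among the 8 genes Tdrd5 was the 1 at least 2-fold lower on both arrays, as were 41 of all genes.

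Rmnd5a encodes a RING subunit of the CTLH complex, a ubiquitin ligase that marks proteins for degradation. Its brightest probe (mm8 chr6:71319123-71319182, minus strand) read 4971 and 4115 in the deficient samples, against 7735 and 8533 in the controls. The groups were apart on both arrays, with log2 ratios of -0.71 and -1.07 and a mean of -0.89 ± 0.12 (SE, n = 2 arrays; limma adjusted p = 0.0816), or -0.50 with median centring. Rmnd5a had 4 kept probes within 2.92 kb, and they gave the narrowest range of any gene with several probes. Their means ran from -0.95 to -0.76, and all 4 were lower on both arrays and further down on replicate 2. The probes read the same samples and are not replicates of the comparison.

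Arpp21 encodes a cyclic AMP regulated phosphoprotein with an RNA binding R3H domain, and a long form of it is abundant in immature cortical thymocytes. The brightest probe (mm8 chr9:111910321-111910380, minus strand) had processed signals of 13631 and 11841 in the deficient samples, against 23241 and 20732 in the controls. Its log2 ratios of -0.65 and -0.71 lay close together, with a mean of -0.68 ± 0.07 (SE, n = 2 arrays; limma adjusted p = 0.0740). Median centring left it at -0.14 (limma adjusted p = 0.367). A second probe (chr9:112026180-112026239), 115.9 kb away at its far end, was lower still, at -0.96 and -1.18 with a mean of -1.07 ± 0.09. The third probe (chr9:112005603-112005662) read -0.18 and -0.83, the widest gap between arrays of the 3, with a mean of -0.50 ± 0.19. Its processed signals were 477.1 and 548.6 in the deficient samples against 583.5 and 1137 in the controls, so the arrays differed mainly in the control. All 3 probes were lower on both arrays.

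Plxnd1 encodes plexin D1, the receptor of semaphorin 3E, which together with chemokine signals directs the movement of thymocytes between cortex and medulla. A single probe (mm8 chr6:115920916-115920975, minus strand) read 3621 and 2980 in the deficient samples, against 5036 and 5345 in the controls. Log2 ratios were -0.51 and -0.86, with a mean of -0.69 ± 0.12 (SE, n = 2 arrays; limma adjusted p = 0.0895), or -0.41 with median centring. The gene thus stood at 70.3% of control on replicate 1 and 55.0% on replicate 2.

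Themis encodes an adaptor that binds GRB2 and tunes receptor signals at positive selection. The brightest of 3 probes (mm8 chr10:28571982-28572041, plus strand) read 3040 and 3132 in the deficient samples, against 3428 and 3783 in the controls. The difference was small and of the same sign on both arrays, with log2 ratios of -0.20 and -0.29 and a mean of -0.24 ± 0.07 (SE, n = 2 arrays; limma adjusted p = 0.149). A second probe (chr10:28471681-28471740) read -0.10 and -0.44. The third probe (chr10:28452411-28452470) gave opposite signs, 0.29 and -0.41, with processed signals of 230.8 and 192.4 in the deficient samples against 169.6 and 316.8 in the controls. On that probe the groups overlapped.

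Cux1 encodes a CUT homeodomain transcription factor known mostly as a repressor. Its brightest probe (mm8 chr5:136532938-136532997, minus strand) read 5594 and 4906 in the deficient samples, against 8578 and 6000 in the controls. Log2 ratios were -0.65 and -0.30, with a mean of -0.48 ± 0.12 (SE, n = 2 arrays; limma adjusted p = 0.119). Median centring left it at -0.092 (limma adjusted p = 0.701). Cux1 was the gene among the 7 that was further down on replicate 1. Both other kept probes, at chr5:136564099-136564158 and chr5:136538700-136538759, were dim and nearer to 0, with means of -0.18 and -0.20, and both were lower on both arrays. The brightest probe and the probe at chr5:136538700-136538759 are filed under the same transcript of the gene. The probe at chr5:136564099-136564158 is filed under another. Which protein form each probe reads was not tested, so the value of the brightest probe may not hold for every form. The fourth probe (chr5:136558438-136558498) was not well above background in either channel on either array, and no fold is given for it.

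Aqp11 encodes an aquaporin of intracellular membranes. Its single probe (mm8 chr7:97601671-97601730, minus strand) read 15599 and 14477 in the deficient samples, against 20907 and 19602 in the controls. The 2 arrays gave nearly the same log2 ratio, -0.29 and -0.32, with a mean of -0.30 ± 0.07 (SE, n = 2 arrays; limma adjusted p = 0.113). Centring each array on its median in place of loess turned this value to 0.24, against a median of 0.13 over all genes, so the direction of Aqp11 depends on this choice. Themis was at 0.0095 in the same setting, below that median of all genes.

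Nlgn2 encodes a neuroligin, an adhesion protein best known from inhibitory synapses. Its single probe (mm8 chr11:69639686-69639745, minus strand) was the dimmest of the 8, with 112.6 and 116.4 in the deficient samples against 121.6 and 95.3 in the controls. The groups overlapped, the log2 ratios were -0.064 and 0.14, and the mean was 0.04 ± 0.09 (SE, n = 2 arrays; limma adjusted p = 0.783). All 4 signals were well above background by Agilent's rule.

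**Figure D2:**
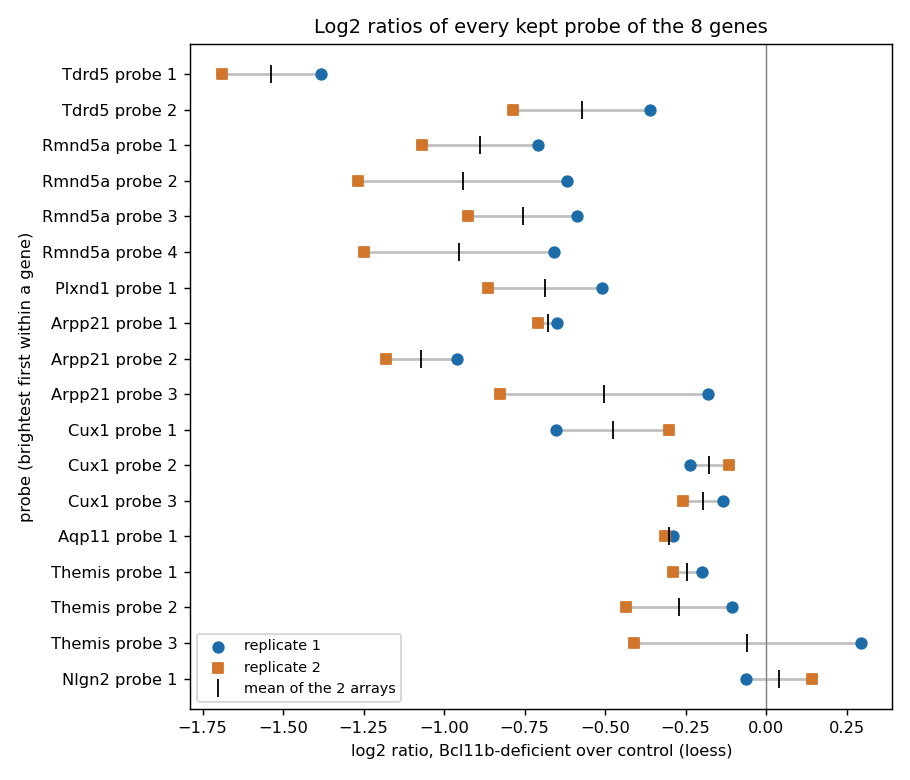
Log2 ratio of Bcl11b-deficient over control for each of the 18 kept probes, genes ordered by the value of their brightest probe. Circles are replicate 1, squares replicate 2 and ticks the mean of both. Of the 18 probes 16 lie below 0 on both arrays, while 1 Themis probe and the Nlgn2 probe straddle 0.

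Counted by probe, 16 of 18 kept probes were lower on both arrays, 2 were of mixed sign and 0 were higher on both. Of all 21539 kept probes, 36.9% were lower on both arrays. All 18 were well above background in both channels on both arrays, and none was saturated. The genes spanned mean log2 intensities from 9.63 for Nlgn2 to 15.7 for Aqp11.

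**Figure D3:**
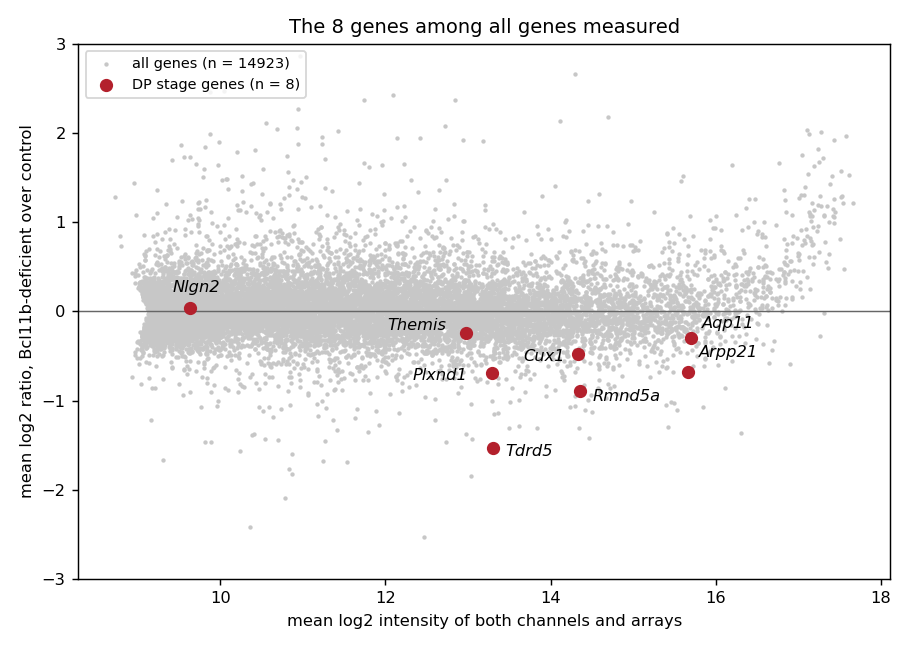
Mean log2 ratio of Bcl11b-deficient over control (vertical, n = 2 arrays) against mean log2 intensity (horizontal) for 14923 genes in grey, with the 8 DP stage genes in red. The vertical axis is limited to 3 on either side and leaves out 3 genes. Tdrd5, Rmnd5a, Plxnd1 and Arpp21 lie below most genes of like intensity, and Nlgn2 lies near 0. The cloud bends upward at the bright end, to the right of all 8 genes.

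Calls on single genes depended on the fit, and every fit below drew on the same pair of arrays. Limma on Agilent's processed signals called 1 of the 8 lower, Tdrd5 (-1.59, limma adjusted p = 0.0488), and 0.382% of all genes. The series' deposited value table, which holds the same ratios within 0.005 on the log10 scale, gave Tdrd5 a limma adjusted p of 0.0513, so that call was lost. Limma after median centring also called Tdrd5 (-1.24, limma adjusted p = 0.0319), and 0.704% of all genes as lower. Separate-channel limma called 3 of the 8 lower, Arpp21 (adjusted p = 0.0249), Rmnd5a (0.0280) and Plxnd1 (0.0398), and 3.81% of all genes. It did not call Tdrd5, whose signals differed most between arrays (adjusted p = 0.102).

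**Figure D4:**
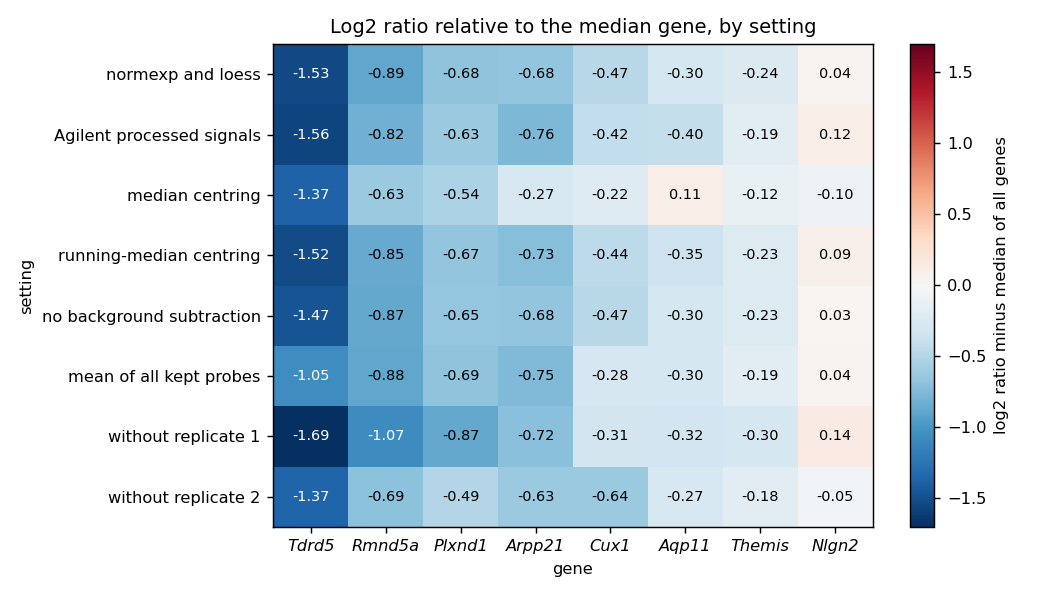
Log2 ratio of each gene minus the median of all genes in the same setting, with genes across and settings down the page and blue for values below the median gene. The top setting is the normexp and loess processing of the text, and the lowest settings leave out 1 array. Tdrd5, Rmnd5a, Plxnd1, Arpp21, Cux1 and Themis are negative in every setting drawn, Aqp11 is 0.11 with median centring, and Nlgn2 changes sign.

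A further 18 genes of the DP stage were described beside these 8, and all 18 were measured. They split, with 10 lower and 7 higher on both arrays, against 38.5% and 36.4% of all genes, and a median of -0.17 (-0.13 on replicate 1 and -0.19 on replicate 2). Median centring turned this to 0.35, with 4 lower and 12 higher, against a median of 0.13 over all genes. None passed limma's test over all genes. At an unadjusted p of 0.05, 8 were lower and 3 higher, against 14.1% lower and 15.1% higher over all genes. Ccr9, a chemokine receptor of thymocyte migration, read 19098 and 9772 in the deficient samples against 36321 and 43389 in the controls, for log2 ratios of -0.74 and -1.99. Ets2, a transcription factor gene, read -0.94 and -1.15. Median centring put the means of Ccr9 and Ets2 at -0.75 and -0.54. Dntt, the terminal transferase that adds bases at receptor gene junctions, went the other way with 101833 and 87490 in the deficient samples against 45474 and 44308 in the controls, and log2 ratios of 1.71 and 1.45. Dntt is among the brightest genes, where ratios of all genes run high, and running-median centring put it at 1.35. The recombinase gene Rag2 stood at -0.57 ± 0.10. Rag1 stood at -0.27 ± 0.07, and it was positive with median centring (0.46).

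**Figure D5:**
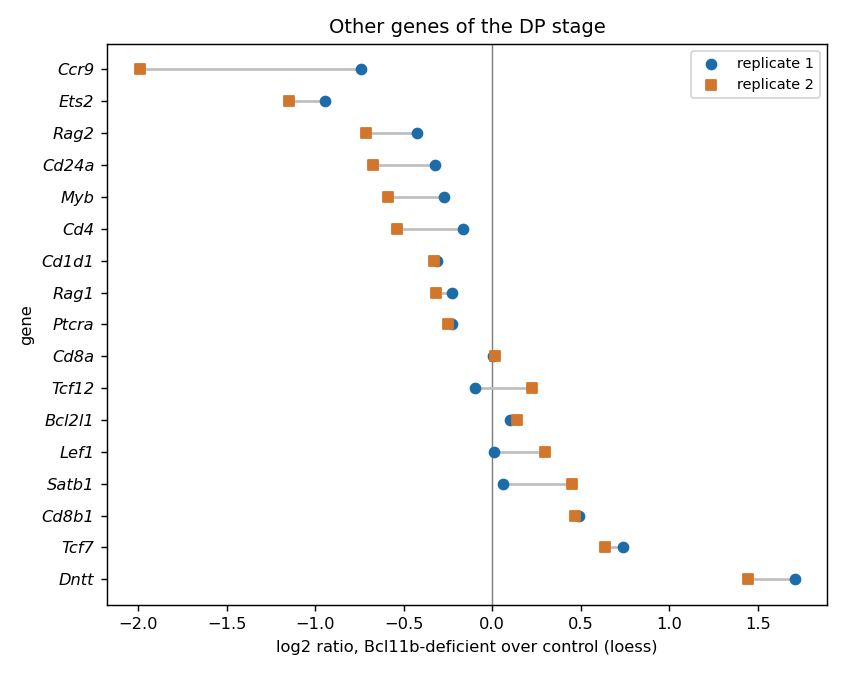
Log2 ratio of Bcl11b-deficient over control for 17 of the other 18 DP stage genes, with circles for replicate 1 and squares for replicate 2, lowest mean at the top. Ccr9 and Ets2 lie furthest below 0, Dntt furthest above, and Tcf12 alone has opposite signs on the 2 arrays.

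Relatives and partners of the 8 genes were counted from lists of their families, in which limma called 0 genes at an adjusted p of 0.05 over all genes. At an unadjusted p of 0.05, each list held between 0 and 3 genes in either direction, where 14.1% of all genes were lower and 15.1% higher. Among partners of Themis in receptor signalling, 3 were lower and 6 higher on both arrays of 10 measured (median 0.14, but 0.49 with median centring and 0.03 with processed signals), with the adaptor gene Lcp2 at -0.58 ± 0.08 (-0.16 with median centring), Plcg1 at 0.29 ± 0.12 and the phosphatase gene Ptpn11 at 0.29 ± 0.07. The list of plexins, semaphorins and their coreceptors also holds Gipc1 and the chemokine receptor genes Ccr7 and Ccr9. Of its 10 measured genes, 3 were lower and 5 higher (median 0.00086, and -0.03 with processed signals). The 3 lower ones were Ccr7, Ccr9 and Gipc1, so no plexin or semaphorin gene was lower on both arrays. Apart from Ccr9, given above, the coreceptor gene Nrp1 stood at 0.41 ± 0.08 and Plxnc1 at 0.38 ± 0.14. Sema3e, the ligand gene of plexin D1, did not pass the filter on dim probes.

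All 10 listed genes of the CTLH complex were measured. Apart from Rmnd5a itself, 5 were lower and 2 higher on both arrays (median -0.12, but 0.06 with median centring), and all lay closer to 0 than Rmnd5a. Ypel5 at -0.34 ± 0.08, Rmnd5b, the paralogue of Rmnd5a, at -0.23 ± 0.07 and Ranbp10 at -0.22 ± 0.08, which was 0.05 with median centring, were named by the rule. The R3H and ARPP relatives of Arpp21 had 3 of 6 lower on both arrays and none higher (median -0.10, but 0.03 with median centring), with Ppp1r1b at -0.36 ± 0.07, R3hdm1 at -0.25 ± 0.09 and R3hdm4 at -0.15 ± 0.08.

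Of 8 measured Tudor domain and piRNA genes, 5 were higher and 2 lower on both arrays (median 0.05). Tdrd7 read 204.8 and 243.6 in the deficient samples against 128.6 and 62.2 in the controls, a log2 ratio of 0.68 ± 0.16 after normexp and loess (0.67 and 1.97 from the processed signals), and Snd1 and Tdrkh each stood at 0.25 ± 0.08. Among aquaporins, 3 of 7 measured were lower and 2 higher (median -0.04). Aqp3, a channel for water and glycerol, read 490.0 and 938.2 in the deficient samples against 145.5 and 80.6 in the controls, a log2 ratio of 1.52 ± 0.24 after normexp and loess (limma adjusted p = 0.0858) and of 1.75 and 3.54 from the processed signals, and Aqp2 stood at -0.18 ± 0.07. Of neuroligins, neurexins and their scaffold genes 4 were measured, 2 lower and 1 higher (median -0.07), with Nrxn2 at -0.42 ± 0.07. In the CUT homeobox list 2 were measured, Satb1 at 0.26 ± 0.13 and Onecut1 at 0.0099 ± 0.07 (median 0.13, but -0.11 with processed signals), and the processed signals gave Satb1 -0.48 and 0.05.

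Markers set these values in context. Their summed processed signals follow the brightest probes of each list, so a sum does not give the level of a cell type. Of all genes, 38.5% were lower and 36.4% higher on both arrays. Of 43379 spots that were not controls, between 50.5% and 56.5% were well above background in each channel. Bcl11b itself read -1.37 and -2.16 on one probe and -1.40 and -0.28 on the other. All 8 DP markers, among them Cd4, Cd8a, Cd8b1, Cd3e and Cd3d, were well above background in both channels on both arrays, with 6 lower and 2 higher on both arrays (median -0.19, but 0.30 with median centring), and a summed processed signal of 188735 and 164845 in the deficient samples against 244850 and 212818 in the controls. Of markers listed for the earlier double negative stage, 6 of 6 were higher on both arrays (median 0.69). Their sums were 7583 and 6393 in the deficient samples against 4025 and 2673 in the controls. Il7r, the furthest of them from 0 at 1.60, is also in the mature single positive list. NK cell markers were higher for 4 of 5 measured (median 0.81), with sums of 9479 and 9603 in the deficient samples against 4595 and 4153 in the controls, and Ncr1 did not pass the filter. Macrophage or monocyte markers were higher for 5 of 8 and lower for 2 (median 0.30). Their sums were 30188 and 31134 in the deficient samples against 27033 and 10717 in the controls. Lyz2 alone gave 25054 and 28033 of the deficient sums and 23207 and 8756 of the control sums. Stroma or endothelium markers were higher for 4 of 5 (median 0.71), with sums of 5141 and 1985 in the deficient samples against 3298 and 914 in the controls, and Foxn1 and Cdh5 did not pass. Mature single positive markers were 2 higher and 2 lower of 4 (median 0.28), and S1pr1 did not pass. Median centring gave 3 higher and 0 lower (median 0.70), and processed signals 1 higher and 2 lower (median 0.09). Their sums were 56057 and 35687 in the deficient samples against 39629 and 35843 in the controls. B cell markers were 0 higher and 2 lower of 5 (median -0.21), with sums of 4738 and 3438 in the deficient samples against 7178 and 4030 in the controls, and Cd79a did not pass. Of the dendritic cell markers only Zbtb46 passed, at 125 and 124 in the deficient samples against 112 and 121 in the controls. Both erythroid markers measured of 5 had opposite signs on the 2 arrays, with sums of 24424 and 43462 in the deficient samples against 39737 and 9945 in the controls. Whether these marker signals came from other cells or from the DP thymocytes was not tested. Any part of other cells in the lower values of the 8 genes was not tested either. In bulk RNA, fewer cells of a type and less RNA per cell cannot be told apart.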

How the data were processed

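Per the labels' protocols, total RNA was linearly amplified (Agilent) and then ULS-labelled (Kreatech). Agilent Feature Extraction 9.5.3.1 read the scans, per the submitters' processing notes. Deposited mean and local background signals are uncorrected scanner intensity. Deposited processed signals are intensity values corrected for background, spatial trend and dye, per the file headers. The deposited log ratio is log10 of Cy5 over Cy3, and the series' deposited value table equalled that log10 ratio within 0.005 at every spot. Probe positions are on mm8, and both arrays carry the same slide and scan record in the headers.

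Mean signals were corrected by normexp (offset 50) and normalized by loess within each array, controls at weight 0, with limma 3.58.1 in R 4.3.3. Spots marked as outliers (108 and 116) were left out, and spots of a probe were averaged. A probe was kept if both deficient samples, or both control samples, were well above background. Probes took current symbols from RefSeq by accession, symbol or synonym, or kept the file's name (8059 of 41174). Each gene is its brightest kept probe. The log2 ratio of deficient over control was tested against 0 with limma (1 residual degree of freedom, prior 2.51) and adjusted by the Benjamini-Hochberg method over 14923 genes. The test was also run on simulated data. Values of second probes come from the same fit over 21539 probes. Running-median centring used windows of 501 genes. Named relatives are up to 3 per list, those furthest from 0 with the same sign on both arrays and well above background throughout. Rag1 and Rag2 fall outside that rule and were named after their values were seen. Single values of some list genes are not reported here. The 8 genes and all lists were chosen with earlier results of these data known. Whether the samples came from separate mice is not given in the sources used here, so p-values cover only the spread between these arrays. Precision is limited by the 2 arrays.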

Additional observations from a re-analysis of the deposited data

How the results depend on the processing

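Of 80 tested comparisons of a gene's value with another setting, 73 kept direction and side of the threshold, 5 newly passed it and 2 changed direction. With no filter, both channels above background, separate-channel limma and the fit by probe, the ratios of the 8 genes stayed the same. Direction could not change in those settings, and only the adjusted p could differ. With 1 array left out no test could be run, and 15 of 16 values kept their direction. For the 7 genes lower on both arrays, that outcome was fixed in advance. Genes called lower numbered 0 with normexp and loess, 1 with Agilent's processed signals, 1 with median centring and 3 with separate-channel limma. With the other settings run, namely running-median centring, no background subtraction, no filter, both channels above background, the mean of all kept probes, the series' value table and the fit by probe, the count stayed at 0. Median centring left 4 of the 8 lower on both arrays, gave a median of -0.12, and turned Themis (0.0095) and Aqp11 (0.24) positive. A further gene kept a mean below 0 but was no longer lower on both arrays. Median centring corrects no trend with intensity. It set the median of all probes to 0 on each array, dim ones included, and the median of the genes measured was then 0.13. The mean of all kept probes gave a median of -0.49 and moved Tdrd5 to -1.05 and Cux1 to -0.28, since their dimmer probes read nearer to 0. Without replicate 1 the median of the 8 was -0.51, and without replicate 2 it was -0.58. Nlgn2 was 0.14 without replicate 1 and -0.064 without replicate 2, where all 8 were below 0. The offset added to every signal draws dim ratios towards 0, which limits Nlgn2, the dimmer probes of Tdrd5 and Cux1, and dim relatives such as Aqp3 and Tdrd7.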
